A study of Caenorhabditis elegans with 6 samples.

Results

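The transcriptome of whole young adult C. elegans hermaphrodites given 200 Gy of X-rays was compared with that of unirradiated ones, 2 RNA sequencing libraries against 2, which are 4 of the 6 libraries of the study. The other 2 libraries came from worms given 400 Gy (Gy, gray, the unit of absorbed dose). Per the labels, about 1000 synchronized worms were irradiated 24 h after the last larval stage (L4) with a linear accelerator, and all groups were kept on the same agar medium. Neither the strain nor the time from irradiation to harvest is given in the sources used here. RNA was extracted with Trizol, and 1 ug of total RNA went into a TruSeq library, a kind that does not mark strand. Nothing in the labels states separate cultures for the 2 libraries of a dose. A p-value here therefore reflects library-to-library spread, part of which may be technical.

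Ionizing radiation breaks DNA, and dividing cells respond through checkpoint kinases, repair enzymes and, in the germline, cell death set off by the p53 homologue CEP-1. In an adult hermaphrodite the somatic cells no longer divide, while the germline does, and embryos develop inside the uterus. The tissues that make up most of the rest are the intestine, which digests food, stores fat and faces microbes, the body wall muscle, the epidermis, which secretes the collagen cuticle, and the neurons. Whole worms were measured, so fewer cells of a type and less RNA per cell cannot be told apart.

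Fold changes between the doses fell with the coding length of a gene. Across the 14417 genes with enough counts, of 45292 listed, Spearman's correlation between coding length and log2 fold change (200 Gy over 0 Gy) was -0.532 over genes, which are not independent replicates. In the shortest decile of genes by coding length the median was 0.86, and in the longest decile it was -1.32. Without a correction, 204 of the shortest decile were called higher and 13 lower, against 2 and 522 of the longest decile. Each gene was therefore judged against genes of similar length, by removing from each library the smooth trend of its counts on length. After that the correlation was -0.026, and the calls in the shortest and longest deciles were 4 higher with 22 lower and 31 higher with 11 lower. All values below are length-corrected unless they are said to be uncorrected. A gene's level is its CPM value (counts scaled to library size) after this correction, and changes are log2 fold changes ± an approximate standard error.

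**Figure D1:**
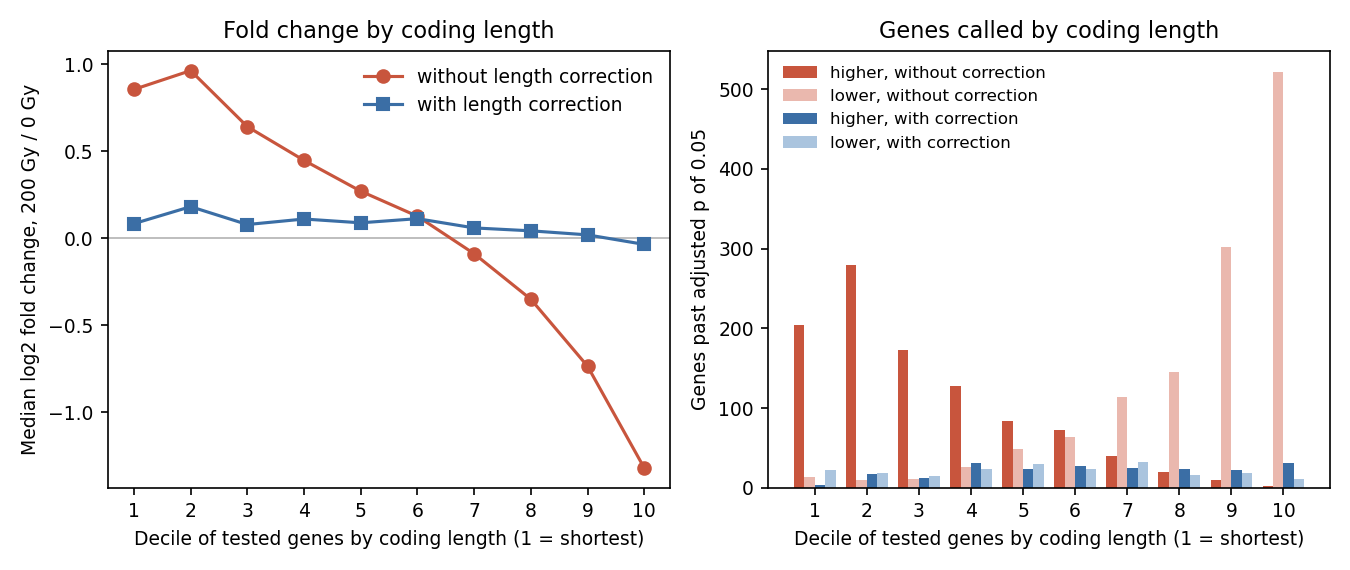
The left panel plots the median log2 fold change (200 Gy over 0 Gy) against the decile of genes by coding length, without (circles) and with (squares) the length correction, and the right panel gives the number of genes past an adjusted p of 0.05 in each decile. Without correction the median goes from 0.86 in the shortest to -1.32 in the longest decile, and with it the line stays near 0.

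With edgeR's quasi-likelihood test and Benjamini-Hochberg adjustment at 0.05, 426 genes passed, 2.95% of those tested. Of these, 216 were higher at 200 Gy (1.5% of tested genes) and 210 lower (1.46%). Without the correction 1013 were higher (7.03%) and 1256 lower (8.71%), and 353 of the 426 were among them. The spread between libraries was wide, with a biological coefficient of variation of 32.7%, and the 2 libraries at 200 Gy differed from each other more (SD of log2 differences 0.924) than the 2 at 0 Gy (0.588). The lowest adjusted p was 0.00731, and 3947 genes had an unadjusted p under 0.05. The number of calls hung on single libraries. It was 2 without the first 0 Gy library (lips-6 and sdz-24, both lower) and 0 without the second by edgeR, with 2534 and 2114 genes at an unadjusted p under 0.05. It was 2243 without the first 200 Gy library and 833 without the second. Every call named below, other than those of lips-6 and sdz-24, was lost in edgeR's fit without the first 0 Gy library, and all of them without the second. Each of the 426 genes had non-overlapping doses. Such non-overlap was frequent: 28.7% of all tested genes had both 200 Gy libraries above both 0 Gy libraries and 27.4% had both below. Fold changes also rose with the level of a gene, with a median of 0.58 and 71 calls higher and 0 lower in the highest decile by level. Removing that trend too ended the calls of vha-6, atn-1, lev-11, unc-54, unc-87, dgat-2, pdi-6, cdr-4, lec-2, lec-11, lys-1, lys-2, pkc-2, aqp-4 and col-184 among genes named below. Leaving out the second 200 Gy library ended those of him-4, tbx-11, tbx-38, crn-3, lips-15, abf-5, grd-13, ceh-40, flp-1, nac-1 and slc-17.4.

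Among single genes, mul-1 (chromosome IV, 4121371 to 4123020), the gene of a mucin-like protein, had the highest log2 fold change. It stood at 11.4 and 13.6 CPM at 0 Gy and 837 and 407 at 200 Gy, a change of 5.64 ± 0.51 (adjusted p = 0.00731). The uncharacterized gene Y41C4A.11 (chromosome III, 11719900 to 11723513) stood at 7.06 and 8.04 CPM at 0 Gy and 146 and 155 at 200 Gy, a change of 4.32 ± 0.39 (adjusted p = 0.00731). Both 200 Gy libraries of each lay far above both 0 Gy libraries, and these were the 2 genes still called when only the 4 libraries compared were fitted. The putative folate transporter gene folt-2 (chromosome V, 2872715 to 2875478) measured 2.75 and 3.08 CPM at 0 Gy and 29.6 and 43.8 at 200 Gy, a change of 3.65 ± 0.41 (adjusted p = 0.0182). K08E5.1, with a coding length of 4088 bases, measured 3.38 and 2.92 CPM at 0 Gy and 16.22 and 50.6 at 200 Gy. Its change was 3.40 ± 0.60 (adjusted p = 0.0399), against 1.84 uncorrected. The 2 irradiated libraries of K08E5.1 were well apart, yet both were above the controls. The other 8 of the 12 largest rises with a mean of at least 5 CPM had changes from 3.19 to 3.47. They were the cuticle collagen genes col-137 and col-88, the C-type lectin genes clec-4 and clec-265, the O-acyltransferase homologue oac-57, and T22F3.8, F11D11.3 and T22B7.3.

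Among called genes with a mean of at least 5 CPM the largest fall was that of F10D2.8 (chromosome V, 7150265 to 7150686), at 10.5 and 16.19 CPM at 0 Gy and 0.425 and 0.332 at 200 Gy, a change of -5.14 ± 0.73 (adjusted p = 0.036). H03E18.1 (coding length 3444 bases) went from 12.7 and 13.6 CPM at 0 Gy to 1.22 and 0 at 200 Gy, a change of -4.36 ± 0.92 (adjusted p = 0.0455). The zygotic gene sdz-24 (chromosome II, 658702 to 659662), named as one whose embryonic transcription depends on the factor SKN-1, measured 97.1 and 115 CPM at 0 Gy and 7.04 and 9.21 at 200 Gy. Its change was -3.70 ± 0.38 (adjusted p = 0.0164), and the doses did not come near each other. For ins-19 (chromosome II, 3126075 to 3126441), a gene of an insulin-like peptide, the libraries measured 29.8 and 28.7 CPM at 0 Gy and 4.11 and 2.01 at 200 Gy, a change of -3.29 ± 0.49 (adjusted p = 0.0368). The lipase-related gene lips-6 measured 5.41 and 28.1 CPM at 0 Gy and 0.931 and 0.913 at 200 Gy, a change of -4.17 ± 0.81 (adjusted p = 0.042), with the control libraries themselves far apart. A surface gene, bus-1, whose loss changes how bacteria adhere to the worm, measured 8.53 and 16.6 CPM at 0 Gy and 0.891 and 0.94 at 200 Gy, a change of -3.76 ± 0.82 (adjusted p = 0.0476). The other 6 of the 12 largest falls at that level (F14D2.19, ZK265.7, clec-180, F13B6.3, T14B1.1 and T26C5.2) ran from -3.71 to -3.22.

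**Figure D2:**
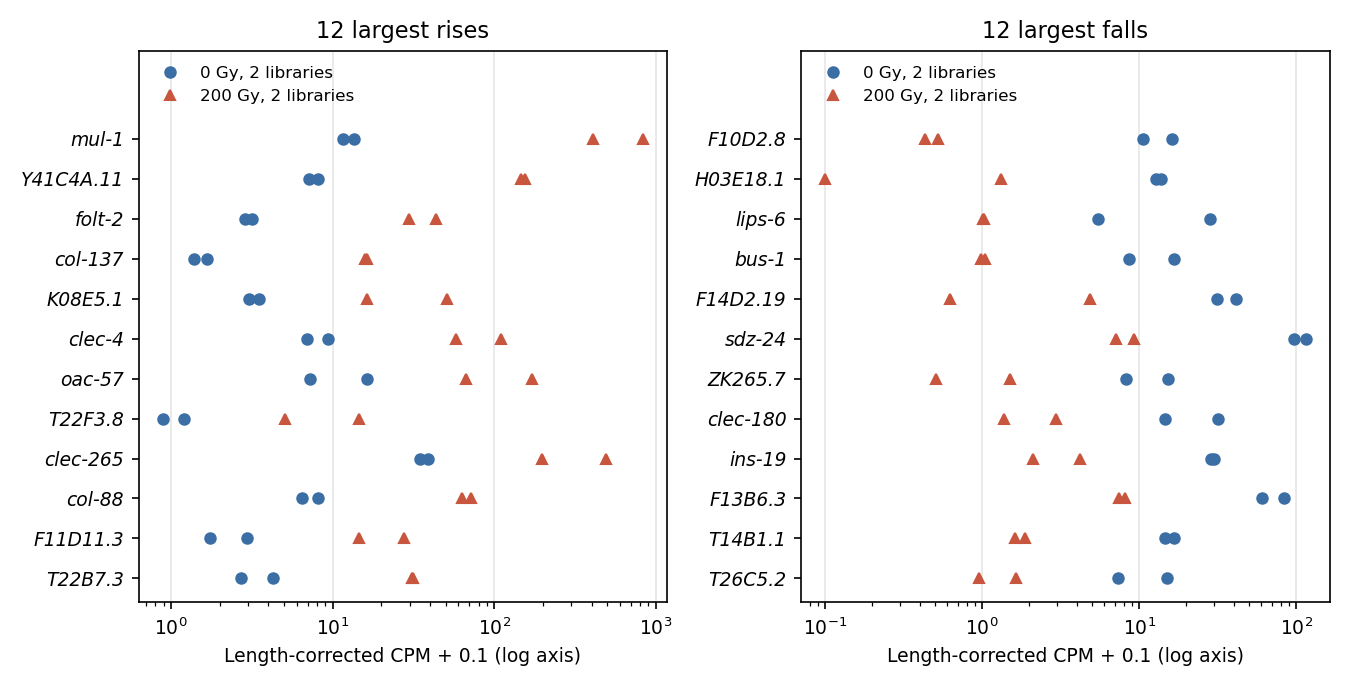
Length-corrected CPM + 0.1 on a log axis for the 12 largest rises (left) and 12 largest falls (right) past the threshold with a mean of at least 5 CPM, each library a point (circles 0 Gy, triangles 200 Gy). In every gene both triangles lie on one side of both circles, as in mul-1 at 11.4 and 13.6 against 837 and 407 CPM.

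Some of these differed between the irradiated doses too. In the same fit, 646 genes (4.48% of those tested) passed between 200 and 400 Gy. At 200 Gy Y41C4A.11 was above 400 Gy by 2.56 ± 0.35 (adjusted p = 0.022) in log2, folt-2 by 1.87 ± 0.37 (adjusted p = 0.0352), K08E5.1 by 3.41 ± 0.60 (adjusted p = 0.0276) and oac-57 by 3.67 ± 0.65 (adjusted p = 0.0277). For mul-1 the difference was 1.05 ± 0.42 (adjusted p = 0.158) and for sdz-24 -1.19 ± 0.36 (adjusted p = 0.083), neither past the threshold. Of the 12 largest falls, 0 passed between 200 and 400 Gy. Without either 400 Gy library the count over all genes fell to 7 or 4, so these differences rest on both.

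Listed genes of the intestine had a higher median at 200 Gy. Of 21 tested intestinal markers 3 rose and 0 fell, the median change was 0.91 against 0.08 over all tested genes, and 14 had both irradiated libraries above both controls. The intermediate filament gene ifc-2 (coding length 3974 bases), which lines the intestinal lumen, measured 162 and 211 CPM at 0 Gy and 1024 and 1043 at 200 Gy. Its change was 2.47 ± 0.38 (adjusted p = 0.0385), and uncorrected it was 1.12 (adjusted p = 0.0748), so the call rests on the correction. The gene dod-19, known to lie downstream of the insulin pathway, measured 141 and 135 CPM at 0 Gy and 758 and 577 at 200 Gy, a change of 2.27 ± 0.38 (adjusted p = 0.0394). The apical proton pump subunit gene vha-6 measured 380.2 and 348 CPM at 0 Gy and 1339 and 1339 at 200 Gy, a change of 1.88 ± 0.37 (adjusted p = 0.042) against 0.91 uncorrected. These 3 genes had libraries of a dose close together. The 2 markers of the highest level did not pass. The aspartyl protease gene asp-1 measured 4194 and 5612 CPM at 0 Gy and 13290.0 and 5171 at 200 Gy and the microvillus actin gene act-5 631 and 886 CPM at 0 Gy and 3362 and 1323 at 200 Gy, with the second irradiated library of asp-1 inside the control range. The list's median stayed positive under every alternative tried (0.63 to 1.09), and was 0.69 when the trend on level was removed as well. Between 200 and 400 Gy, ifc-2 differed by 2.24 ± 0.38 (adjusted p = 0.026) and vha-6 by 2.05 ± 0.37 (adjusted p = 0.0277), and dod-19 by 0.99 ± 0.37 (adjusted p = 0.135).

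Transport and metal genes, many of them active in the intestine, had calls mostly in the higher direction. Of 50 tested ABC transporter genes, which pump lipids and foreign compounds, 3 rose and 0 fell, with a median of 0.74 that turns to -0.22 without the length correction. The P-glycoprotein gene pgp-9 (coding length 3885 bases) measured 14.7 and 27.4 CPM at 0 Gy and 138 and 151 at 200 Gy, a change of 2.78 ± 0.44 (adjusted p = 0.0394) against 1.44 uncorrected. The lipid transporter gene abt-4 (coding length 5409 bases) measured 19 and 24.5 CPM at 0 Gy and 93.8 and 75.1 at 200 Gy, a change of 1.96 ± 0.32 (adjusted p = 0.0394) against 0.40 uncorrected. The third was haf-4, a transporter of intestinal granules, with a change of 2.02 ± 0.36 (adjusted p = 0.04). Of 55 solute transporter genes 4 rose and 0 fell (median 0.53, 0.21 to 0.83 over the alternatives): besides folt-2, slc-17.6 with 2.00 ± 0.32 (adjusted p = 0.0394), the dicarboxylate transporter gene nac-1 with 2.06 ± 0.42 (adjusted p = 0.042) and slc-17.4 with 1.89 ± 0.42 (adjusted p = 0.0485). Of 20 metal handling genes 2 rose (median 0.49). They were hrg-3, whose product carries heme out of the intestine, at 0.267 and 0.507 CPM at 0 Gy and 5.90 and 7.20 at 200 Gy, a change of 4.04 ± 0.60 (adjusted p = 0.0368), and the cadmium-responsive gene cdr-4 with 2.85 ± 0.60 (adjusted p = 0.0455). Aquaporin genes, which code for water and glycerol channels, had a median of 0.92 (0.84 to 1.25 over the alternatives), and 9 of 10 tested were positive. Of these, aqp-11 rose by 1.69 ± 0.31 (adjusted p = 0.042) and aqp-4 by 1.47 ± 0.33 (adjusted p = 0.05), at the edge of the threshold, while aqp-2 fell to 35.6 and 24.0 CPM from 95.9 and 107.5, a change of -1.77 ± 0.35 (adjusted p = 0.042).

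Immune effector families had more calls higher than lower. Of 20 tested genes known to respond to bacterial infection, 4 rose and 0 fell (median 0.84, 0.65 to 1.15 over the alternatives), and 14 had doses that did not overlap in the higher direction. The gene hpo-6 measured 83.2 and 89.3 CPM at 0 Gy and 595 and 429.5 at 200 Gy, a change of 2.57 ± 0.38 (adjusted p = 0.0368), and dod-22 measured 11.3 and 9.68 CPM at 0 Gy and 42.4 and 83.9 at 200 Gy, a change of 2.59 ± 0.42 (adjusted p = 0.0394). The other 2 were lectin genes, clec-67 with 2.65 ± 0.37 (adjusted p = 0.036) and clec-85 with 2.1 ± 0.37 (adjusted p = 0.0394). All 4 lie on chromosome IV, which was seen after the values. Of 132 C-type lectin genes, coding for sugar-binding secreted proteins, 9 rose and 2 fell (median 0.73). Within the family clec-41 measured 170.1 and 177 CPM at 0 Gy and 1043 and 798 at 200 Gy, a change of 2.40 ± 0.37 (adjusted p = 0.0385), and it was above 400 Gy by 2.31 ± 0.37 (adjusted p = 0.0232). Of 12 galectin genes 3 rose (median 0.74, 0.28 to 1.12 over the alternatives). Of these, lec-12 changed by 1.67 ± 0.31 (adjusted p = 0.042), lec-11 by 1.74 ± 0.39 (adjusted p = 0.0485) and the long lec-2 by 2.08 ± 0.40 (adjusted p = 0.042) against 0.73 uncorrected. Among 31 genes of lysozymes and saposin-like proteins, which attack bacterial walls and membranes, the 2 that rose and the 2 that fell were of different kinds. The lysozyme genes lys-1 and lys-2, next to each other on chromosome V, rose, and both calls ended when the trend on level was removed too. For lys-1 the libraries stood at 908 and 972 CPM at 0 Gy and 4443 and 4971 at 200 Gy, a change of 2.32 ± 0.44 (adjusted p = 0.042). The saposin-like genes spp-12 and spp-9 fell, from 7.45 and 5.19 CPM to 0.737 and 0.654 for spp-12 (change -3.18 ± 0.63 (adjusted p = 0.042)) and by -2.86 ± 0.58 (adjusted p = 0.0427) for spp-9. The antimicrobial peptide gene abf-5 was the 1 member of 36 small secreted peptides that passed, at 0.938 and 0.772 CPM at 0 Gy and 3.51 and 9.54 at 200 Gy, a change of 2.94 ± 0.63 (adjusted p = 0.0469).

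Among enzymes of detoxification the glutathione S-transferases had the most calls. Of 43 tested glutathione S-transferase genes, whose products couple glutathione to reactive compounds, 5 rose and 0 fell (median 0.71, 0.62 to 1.29 over the alternatives). The study picked this family on the same libraries, and its direction is thus no independent evidence. In length-corrected values gst-38 measured 139.3 and 228 CPM at 0 Gy and 2092 and 754 at 200 Gy, a change of 2.96 ± 0.58 (adjusted p = 0.042), and gst-5 measured 42.3 and 50.7 CPM at 0 Gy and 213 and 189 at 200 Gy, a change of 2.11 ± 0.33 (adjusted p = 0.0385). For gst-5 the libraries of a dose lay close together, and for gst-38 the irradiated ones did not. Changes were 1.66 ± 0.32 (adjusted p = 0.042) for gst-39 and 1.75 ± 0.39 (adjusted p = 0.0485) for gst-20. Of 57 UDP-glucuronosyltransferase genes 1 passed, ugt-8, at 0.389 and 1.01 CPM at 0 Gy and 3.81 and 11.1 at 200 Gy, a change of 3.40 ± 0.75 (adjusted p = 0.0476). Their median was 0.86, but 0.20 and 1.14 in the 2 irradiated libraries against the control mean. Of 52 cytochrome P450 genes 2 rose and 1 fell: cyp-14A5 by 2.65 ± 0.51 (adjusted p = 0.042), cyp-37A1 by 1.31 ± 0.29 (adjusted p = 0.0491) and cyp-33A1 by -2.11 ± 0.38 (adjusted p = 0.0416), the last from 62.7 and 94.5 to 13.8 and 22.6 CPM. Of 30 superoxide and peroxide defence genes 0 passed (median 0.52, 0.21 to 0.77 over the alternatives), with 9 at an unadjusted p under 0.05 and 5 past the threshold by DESeq2. The glutathione reductase gene gsr-1 came near, at 381 and 369 CPM at 0 Gy and 1202 and 1088 at 200 Gy, a log2 difference of 1.61 ± 0.37 (adjusted p = 0.0514).

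Lipid metabolism showed both directions. Of 31 genes in a list of fatty acid synthesis, desaturation and storage that also holds lysosomal lipases, 4 rose and 1 fell. The 1 fall and 1 of the 4 rises were the lipase genes lipl-2 and lipl-5, which are counted again among the lipase genes below. The triglyceride synthesis gene dgat-2 measured 126 and 150.1 CPM at 0 Gy and 516 and 995 at 200 Gy, a change of 2.45 ± 0.51 (adjusted p = 0.0455). The desaturase gene fat-5 measured 21.4 and 36.2 CPM at 0 Gy and 97.9 and 97.2 at 200 Gy, a change of 1.76 ± 0.35 (adjusted p = 0.042), and pod-2, the acetyl-CoA carboxylase gene, named after its values were seen, changed by 1.80 ± 0.40 (adjusted p = 0.0489) against 0.09 uncorrected. In dgat-2 and fat-5 the doses were well apart. The lysosomal lipase genes lipl-5 and lipl-2 parted: lipl-5 measured 149.8 and 139.7 CPM at 0 Gy and 483 and 415 at 200 Gy, a change of 1.63 ± 0.34 (adjusted p = 0.0455), and lipl-2 measured 40.6 and 37.4 CPM at 0 Gy and 9.89 and 14.7 at 200 Gy, a change of -1.66 ± 0.35 (adjusted p = 0.0455). Over 17 lipase genes the median was -0.71 (-1.0 to -0.27 over the alternatives), with lips-15 rising by 1.88 ± 0.41 (adjusted p = 0.0469) besides lipl-5, and lips-6 falling besides lipl-2. Of 76 genes of beta-oxidation and dehydrogenases 4 rose and 3 fell (median 0.59). The acyl-CoA dehydrogenase gene acdh-9 rose by 1.69 ± 0.32 (adjusted p = 0.042), and ech-9 fell from 41.7 and 57.03 to 7.89 and 12.7 CPM, a change of -2.25 ± 0.39 (adjusted p = 0.0394). The short-chain dehydrogenase genes dhs-26 and dhs-20 changed by -3.16 ± 0.55 (adjusted p = 0.0394) and -1.97 ± 0.37 (adjusted p = 0.042). The yolk protein genes, expressed in the intestine at very high level, did not pass. For vit-2 the libraries stood at 6741 and 13340.0 CPM at 0 Gy and 27480.0 and 14680.0 at 200 Gy, a log2 difference of 1.07 ± 0.60 (adjusted p = 0.276). The median of the 7 yolk genes and their receptor was 0.69, and -0.61 uncorrected. By library it was 1.43 and -0.49 at 200 Gy, and it turned to -0.60 without the first 200 Gy library and to -0.39 with the trend on level removed too.

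**Figure D3:**
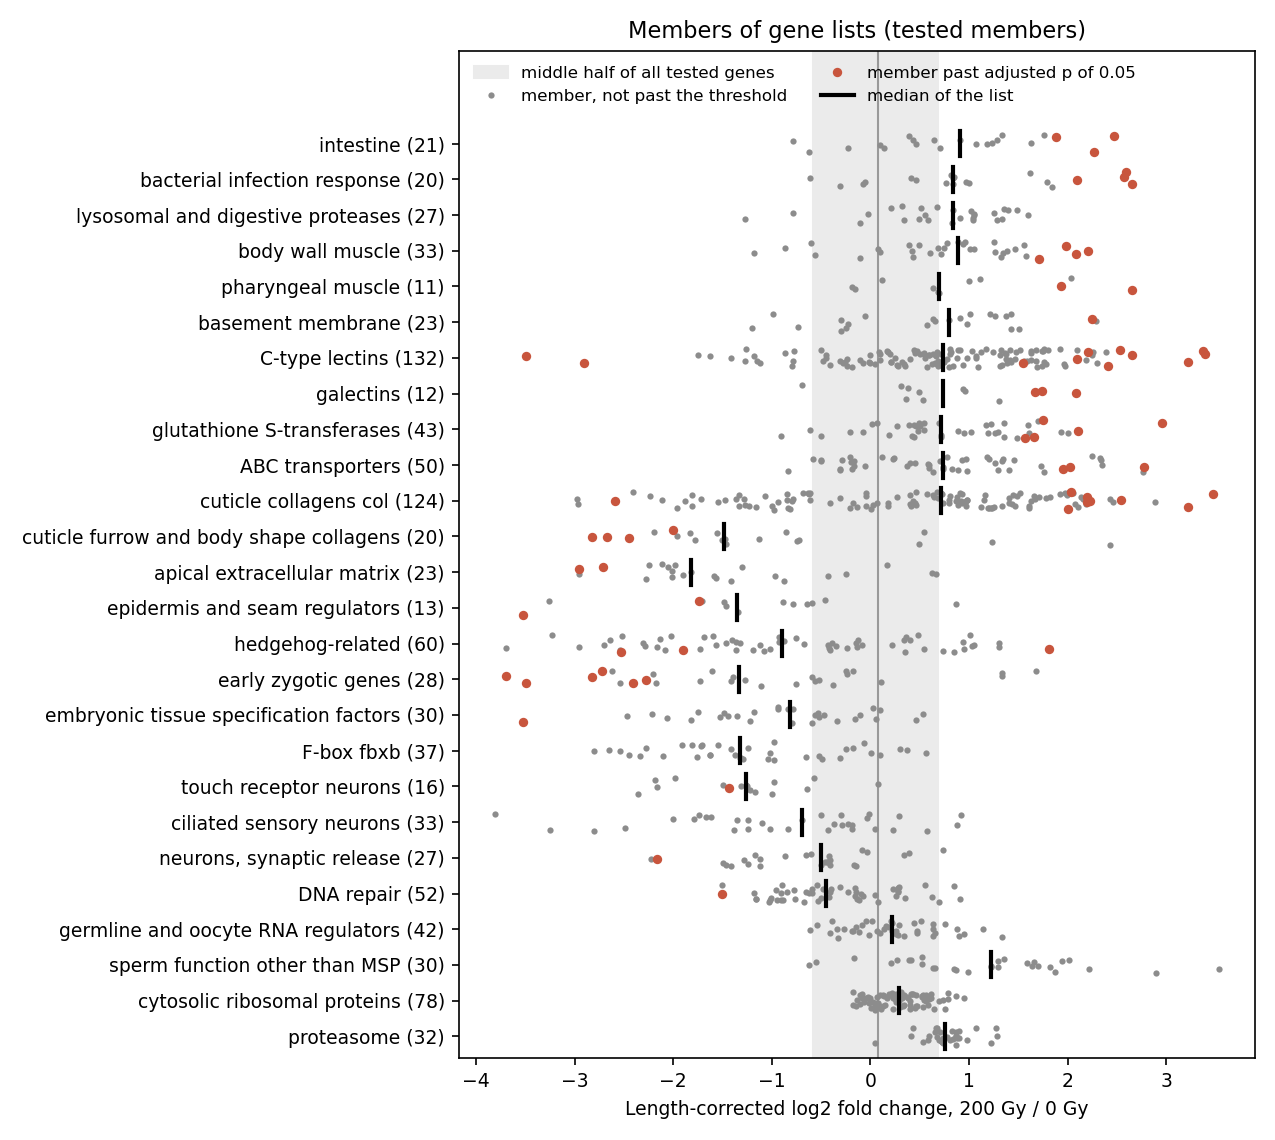
Each point is a tested member of a gene list at its length-corrected log2 fold change (200 Gy over 0 Gy), large and coloured if past an adjusted p of 0.05, with the list's median as a bar, the number tested in parentheses and the interquartile range of all tested genes in grey. Medians of intestinal, muscle and lectin lists lie right of the line for all genes (0.08), and those of cuticle matrix, early zygotic and touch neuron lists lie left of it, down to -1.82.

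Muscle genes had a higher median as well, with unc-54, atn-1, myo-2 and myo-1 called only with the length correction. Of 33 tested body wall muscle genes 4 rose and 0 fell. With the trend on level removed too, all 4 calls ended and 1 other member was called higher. Of the 33, 23 had doses that did not overlap in the higher direction, and the median was 0.89 (0.59 to 0.99 over the alternatives). The major myosin heavy chain gene unc-54 (chromosome I, 14856181 to 14863450, coding length 5892 bases) measured 443 and 755 CPM at 0 Gy and 3058 and 2463 at 200 Gy. Its change was 2.2 ± 0.46 (adjusted p = 0.0455), and uncorrected it was 0.58 (adjusted p = 0.41). The tropomyosin gene lev-11 measured 452 and 586 CPM at 0 Gy and 2345 and 2070.0 at 200 Gy, a change of 2.09 ± 0.41 (adjusted p = 0.042). The alpha-actinin gene atn-1 measured 73.9 and 93.4 CPM at 0 Gy and 284 and 376 at 200 Gy, a change of 1.98 ± 0.36 (adjusted p = 0.042) against 0.88 uncorrected. For unc-87, which codes for a calponin-related actin-binding protein, the libraries of a dose nearly coincided, at 244 and 273 CPM at 0 Gy and 836 and 858 at 200 Gy (change 1.71 ± 0.36 (adjusted p = 0.0458)). Of 11 pharyngeal muscle genes 2 rose (median 0.69, 0.24 to 1.21 over the alternatives), the pharyngeal myosins myo-2 and myo-1. For myo-2 (coding length 5844 bases) the libraries stood at 6.56 and 9.81 CPM at 0 Gy and 39.4 and 63.6 at 200 Gy, a change of 2.65 ± 0.38 (adjusted p = 0.0368) against 0.90 uncorrected. The change of myo-1 was 1.94 ± 0.36 (adjusted p = 0.042) against 0.24 uncorrected. Of the 4 body wall genes, atn-1 differed between 200 and 400 Gy, by 1.51 ± 0.36 (adjusted p = 0.0477).

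Basement membrane genes, which code for the sheet around muscle, gut and gonad, are among the longest in the genome. Of 23 tested 1 rose, and the median was 0.80 with the correction, 0.21 with it but without the second 200 Gy library, and -0.72 without it, so the direction of this list rests on it. The hemicentin gene him-4 (chromosome X, 9717626 to 9753569, coding length 15711 bases) measured 8.61 and 8.44 CPM at 0 Gy and 19.9 and 61.5 at 200 Gy, a change of 2.25 ± 0.49 (adjusted p = 0.0476) against -0.16 uncorrected. The type IV collagen genes did not pass: emb-9 differed by 1.5 ± 0.36 (adjusted p = 0.0532) and let-2 by 1.38 ± 0.41 (adjusted p = 0.0835), although the doses did not overlap in either. The ankyrin gene unc-44 (chromosome IV, 5975576 to 6004033), with a coding length of 21783 bases and known for its role in axon guidance, measured 118 and 149.8 CPM at 0 Gy and 719 and 1144 at 200 Gy. Its change was 2.80 ± 0.40 (adjusted p = 0.036), against 0.28 uncorrected, and it was above 400 Gy by 4.17 ± 0.42 (adjusted p = 0.0176). Of 31 spectrin and junction genes it was the 1 that passed (list median 0.02, and -1.55 uncorrected). The similarly long vab-10 (coding length 22035 bases) differed by 0.95 ± 0.40 (adjusted p = 0.16).

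The lists of cuticle genes differed in direction. Of 124 tested col genes, the main family of cuticle collagens, 8 rose (6.45%, against 1.5% of all tested genes) and 1 fell (median 0.72). Of the 124, 72 did not overlap in the higher and 37 in the lower direction. Over all tested genes these shares were 28.7% and 27.4%, so the lower count is near the share over all genes. The col-184 libraries stood at 1081 and 1157 CPM at 0 Gy and 4685 and 5766 at 200 Gy, a change of 2.22 ± 0.45 (adjusted p = 0.044), and col-96 at 40.0 and 52.5 CPM at 0 Gy and 338 and 200.2 at 200 Gy, a change of 2.54 ± 0.39 (adjusted p = 0.0385). The change of col-142 was 2.2 ± 0.36 (adjusted p = 0.0394), and that of col-19, an adult-specific collagen gene named after its values were seen, was 2.2 ± 0.47 (adjusted p = 0.046). The 2 col genes of the highest level lay just outside the threshold, col-101 with 2.19 ± 0.50 (adjusted p = 0.0501) and col-106 with 1.97 ± 0.48 (adjusted p = 0.054). Against these, col-41 fell from 142 and 130.2 CPM at 0 Gy to 30.1 and 15.1 at 200 Gy, a change of -2.60 ± 0.44 (adjusted p = 0.0394). Among 20 tested collagens of the annular furrows and body shape, 4 fell and 0 rose by edgeR, with a median of -1.49 (-1.65 to -1.31 over the alternatives). Of the 20, 16 did not overlap in the lower direction and 4 in the higher, and by DESeq2 11 fell and 1 rose. The 4 that fell by edgeR all code for furrow collagens. The dpy-10 gene (chromosome II, 6710364 to 6711866) measured 36.1 and 37.8 CPM at 0 Gy and 5.76 and 4.69 at 200 Gy, a change of -2.83 ± 0.37 (adjusted p = 0.0294), and dpy-7 (chromosome X, 7536653 to 7537788) measured 57 and 68.3 CPM at 0 Gy and 15.8 and 15.4 at 200 Gy, a change of -2.0 ± 0.45 (adjusted p = 0.0485). The libraries of a dose were close to each other in both. Changes were -2.67 ± 0.52 (adjusted p = 0.042) for dpy-3 and -2.45 ± 0.54 (adjusted p = 0.0485) for dpy-8. For the body shape collagen gene sqt-3, at 223 and 236 CPM at 0 Gy and 77.9 and 40.1 at 200 Gy, the log2 difference was -1.96 ± 0.51 (adjusted p = 0.0615). That of ram-2, a member of higher level that was not called, ran from -1.32 to -0.60 over the alternatives.

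**Figure D4:**
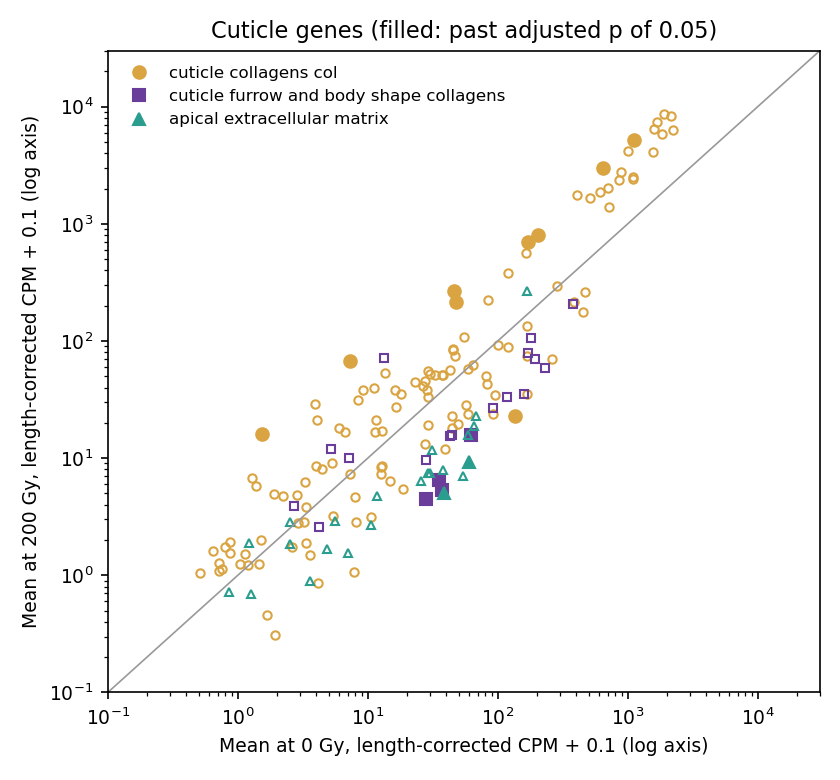
Mean length-corrected CPM + 0.1 at 200 Gy against 0 Gy on log axes for col genes (circles), furrow and body shape collagens (squares) and apical matrix genes (triangles), filled where the adjusted p is below 0.05, with the line of equal level. The col genes of the highest level at 0 Gy lie above the line. Both 200 Gy libraries lay below both controls in 16 of 20 furrow and body shape collagens and 18 of 23 apical matrix genes. They lay above both controls in 4 and 1 genes of these lists.

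The same direction was seen for other genes of the outer matrix and the epidermis. Of 23 tested apical extracellular matrix genes 2 fell and 0 rose, 18 did not overlap in the lower direction, and the median was -1.82 (-2.44 to -1.3 over the alternatives). The zona pellucida protein gene noah-1, needed for the embryonic sheath and for molting, measured 61.5 and 58.4 CPM at 0 Gy and 7.23 and 11 at 200 Gy, a change of -2.72 ± 0.53 (adjusted p = 0.042). The leucine-rich repeat protein gene sym-1 measured 35.7 and 40.8 CPM at 0 Gy and 6.04 and 3.83 at 200 Gy, a change of -2.96 ± 0.54 (adjusted p = 0.042). The 2 members of the highest level did not pass: egg-6 differed by 0.66 ± 0.67 (adjusted p = 0.545), with control libraries far apart, and the protease inhibitor gene mlt-11 by -1.57 ± 0.61 (adjusted p = 0.141). Among 13 transcription factors and regulators of the epidermis and its seam cells, 2 fell and 0 rose (median -1.35). They were the nuclear receptor gene nhr-25, at 5.2 and 7.27 CPM at 0 Gy and 0.832 and 0.271 at 200 Gy (change -3.52 ± 0.65 (adjusted p = 0.042)), and blmp-1, at 27.4 and 35.4 CPM at 0 Gy and 7.83 and 10.9 at 200 Gy (change -1.74 ± 0.39 (adjusted p = 0.0485)). The epidermal factor lin-26, at 70.1 and 51.9 CPM at 0 Gy and 55.2 and 26.1 at 200 Gy, had irradiated libraries on both sides of the second control. Of 60 hedgehog-related genes, whose worm members are mostly epidermal, 2 fell and 1 rose (median -0.90, -1.27 to -0.50 over the alternatives). The hedgehog-like genes wrt-10 and grd-13 changed by -2.53 ± 0.46 (adjusted p = 0.042) and -1.90 ± 0.40 (adjusted p = 0.0455), and the patched-related receptor gene ptr-21 by 1.81 ± 0.32 (adjusted p = 0.0399) against 0.81 uncorrected. Among surface glycosylation genes (44 tested, median -0.03, from -0.31 to 0.14 over the alternatives) the N-acetylgalactosaminyl transferase gene gly-4 rose by 1.63 ± 0.33 (adjusted p = 0.042), beside the fall of bus-1.

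Genes first transcribed in the embryo had a lower median. Of 28 tested early zygotic genes 6 fell and 0 rose by edgeR, and the median was -1.33 (-1.34 to -0.33 over the alternatives). Both irradiated libraries lay below both controls in 21 and above both in 3. By DESeq2 8 fell and 3 rose. Besides sdz-24, vet-2 measured 27 and 49 CPM at 0 Gy and 7.08 and 8.56 at 200 Gy, a change of -2.28 ± 0.40 (adjusted p = 0.0398), and vet-1 measured 19 and 23.2 CPM at 0 Gy and 2.77 and 5.05 at 200 Gy, a change of -2.41 ± 0.45 (adjusted p = 0.042). Both are named as very early transcripts. The T-box factor genes tbx-11 and tbx-38 changed by -2.72 ± 0.53 (adjusted p = 0.042) and -3.49 ± 0.73 (adjusted p = 0.0455), and pes-10, an early embryonic gene, by -2.83 ± 0.63 (adjusted p = 0.0485). The member of the highest level, nos-2, a maternally supplied RNA, measured 186 and 115 CPM at 0 Gy and 169.6 and 96.8 at 200 Gy, with the doses overlapping. F40F12.7, next in level, was not called and went the other way, with log2 differences from 1.02 to 1.96 over the alternatives. Among 30 factors that specify embryonic tissues nhr-25 alone passed, but 19 did not overlap in the lower direction (median -0.81). Of 37 homeobox genes 2 fell (median -0.61). The LIM homeobox gene ceh-14 measured 8.47 and 9.73 CPM at 0 Gy and 1.74 and 1.94 at 200 Gy, a change of -2.29 ± 0.49 (adjusted p = 0.0457), and ceh-40 measured 6.27 and 6.48 CPM at 0 Gy and 1.57 and 1.12 at 200 Gy, a change of -2.26 ± 0.49 (adjusted p = 0.0469). Between 200 and 400 Gy none of these 9 called genes passed by edgeR, with differences from -1.97 (ceh-40) to -0.61 (pes-10). The median of the early zygotic list was -0.33 among members with a mean of at least 5 CPM.

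F-box genes code for substrate receptors of ubiquitin ligases. Of 37 tested fbxb genes 0 passed by edgeR, with 16 at an unadjusted p under 0.05 and 0 past the threshold by DESeq2, yet the median was -1.32 and 27 did not overlap in the lower direction. Among members with a mean of at least 5 CPM the median was -0.32. Many fbxb genes were near the limit of detection: fbxb-44, among those with the largest change, stood at 0.923 and 1.22 CPM at 0 Gy and 0.128 and 0.155 at 200 Gy. The 2 of the highest level, fbxb-7 and fbxb-67, differed by -0.52 ± 0.46 (adjusted p = 0.482) and 0.10 ± 0.41 (adjusted p = 0.899). Among the fbxa genes 2 rose, 1.68% of those tested, a share near the 1.5% over all genes (median 0.27, 0.06 to 0.68 over the alternatives). The fbxa-74 gene measured 11.4 and 15.6 CPM at 0 Gy and 62.8 and 71.8 at 200 Gy, a change of 2.32 ± 0.41 (adjusted p = 0.0394), and fbxa-115 changed by 1.81 ± 0.38 (adjusted p = 0.0455). Among 72 genes of MATH and BTB adaptor proteins bath-47 rose, at 5.25 and 5.08 CPM at 0 Gy and 42.5 and 32.9 at 200 Gy, a change of 2.87 ± 0.38 (adjusted p = 0.0304), and it exceeded 400 Gy by 2.59 ± 0.37 (adjusted p = 0.023). Of the 27 Skp1-related and cullin genes, a family the study named from these samples, 0 passed, with 11 at an unadjusted p under 0.05 and 4 past the threshold by DESeq2 (median -0.51, from -0.57 to 0.13 over the alternatives).

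Neuronal genes differed by class. For touch receptor genes the median was lower: of 16 tested 1 fell and 14 did not overlap in that direction, with a median of -1.26 (-1.59 to -1.0 over the alternatives). The alpha-tubulin gene mec-12 of these neurons measured 96 and 85.1 CPM at 0 Gy and 33.1 and 34 at 200 Gy, a change of -1.43 ± 0.30 (adjusted p = 0.0451). Its partner beta-tubulin gene mec-7 measured 126 and 102 CPM at 0 Gy and 45.9 and 55.0 at 200 Gy, a log2 difference of -1.17 ± 0.31 (adjusted p = 0.063). The doses were apart in both, while the F-box gene mec-15 measured 72.6 and 62.6 CPM at 0 Gy and 78.8 and 63.7 at 200 Gy and overlapped. Among 33 genes of ciliated neurons 0 passed, with 8 at an unadjusted p under 0.05 and 0 past the threshold by DESeq2. They had a median of -0.69 (-1.62 to -0.13 over the alternatives) that was -1.0 and -0.15 in the 2 irradiated libraries against -0.30 and 0.30 in the controls. Of 27 synaptic genes 1 fell (median -0.50, -1.12 to -0.42 over the alternatives), the SNAP-25 gene ric-4, at 24.4 and 44 CPM at 0 Gy and 5.40 and 9.70 at 200 Gy, a change of -2.17 ± 0.47 (adjusted p = 0.0469). Among synaptic genes of the highest level egl-21, a neuropeptide-processing enzyme gene, stood at 164 and 171 CPM at 0 Gy and 158 and 159 at 200 Gy, and the synaptobrevin gene snb-1 had a log2 difference of 0.34 ± 0.34 (adjusted p = 0.545), against 1.19 uncorrected (adjusted p = 0.0471). Over 72 neuropeptide genes the median was 0.04 (from -0.31 to 0.95 over the alternatives), with flp-1 higher by 2.09 ± 0.41 (adjusted p = 0.042) and nlp-12 lower by -2.17 ± 0.42 (adjusted p = 0.042). Genes of transmitter identity (16 tested, 0 called by edgeR, 3 at an unadjusted p under 0.05 and 1 past the threshold by DESeq2) had a median of 0.17, from -0.27 to 0.54 over the alternatives.

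Tubulin genes, which build microtubules, went in both directions, with 3 of 15 higher and 2 lower. The alpha-tubulin gene tba-7 measured 30.7 and 37.4 CPM at 0 Gy and 253 and 271 at 200 Gy, a change of 2.95 ± 0.36 (adjusted p = 0.0285). A second one, tba-4, measured 521 and 519 CPM at 200 Gy, with doses that did not overlap and a change of 2.01 ± 0.34 (adjusted p = 0.0394). The libraries of a dose almost coincided in both. They also exceeded the 400 Gy libraries, by 2.16 ± 0.35 (adjusted p = 0.0232) and 2.09 ± 0.34 (adjusted p = 0.0242). The beta-tubulin gene tbb-6, named after its values were seen, rose by 2.43 ± 0.55 (adjusted p = 0.0495), and tba-8 fell from 6.89 and 8.27 to 1.17 and 0.423 CPM, a change of -3.29 ± 0.66 (adjusted p = 0.042). The germline and embryonic tubulin gene tbb-2 did not pass, at 1266 and 1036 CPM at 0 Gy and 2453 and 739.9 at 200 Gy.

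Germline and sperm lists had no calls in the edgeR fit that gave the calls above. Of 42 germline and oocyte RNA regulators 0 passed by edgeR, with 1 at an unadjusted p under 0.05 and 0 past the threshold by DESeq2. Against the control mean their medians were 0.56 and -0.56 in the control libraries and 0.92 and -0.69 in the irradiated ones, so the first library of each dose was high and the second low. Their median change of 0.215 turned to -0.85 without the first 200 Gy library. The Y-box gene cey-2 stood at 2046 and 999 CPM at 0 Gy and 2540.0 and 989 at 200 Gy. Meiosis and germline nuclear genes (30 tested, 0 called by edgeR, 7 at an unadjusted p under 0.05 and 2 past the threshold by DESeq2) had a median of -0.27 (-0.76 to -0.08 over the alternatives), with -0.08 and -0.70 in the irradiated libraries. Sperm genes had higher medians in both irradiated libraries, but 0 passed by edgeR: the 30 sperm genes other than major sperm proteins had 12 at an unadjusted p under 0.05 and 6 past the threshold by DESeq2 and a median of 1.22, with 0.67 and 1.44 by library and 19 not overlapping in the higher direction. The 26 major sperm protein genes, near-identical copies whose reads may be shared among them, had 12 at an unadjusted p under 0.05 and 4 past the threshold by DESeq2 and a median of 1.2, with 0.40 and 1.6 by library and 16 not overlapping in the higher direction. In the control libraries the medians were 0.07 and -0.07 for the other sperm genes and 0.27 and -0.27 for the major sperm proteins. Without the second 200 Gy library the medians of the sperm lists were 0.66 and 0.42, and without the first that of the major sperm proteins was 1.67. Of these, msp-33 measured 3.66 and 3.26 CPM at 0 Gy and 5.53 and 19.4 at 200 Gy, a log2 difference of 1.86 ± 0.59 (adjusted p = 0.0909).

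**Figure D5:**
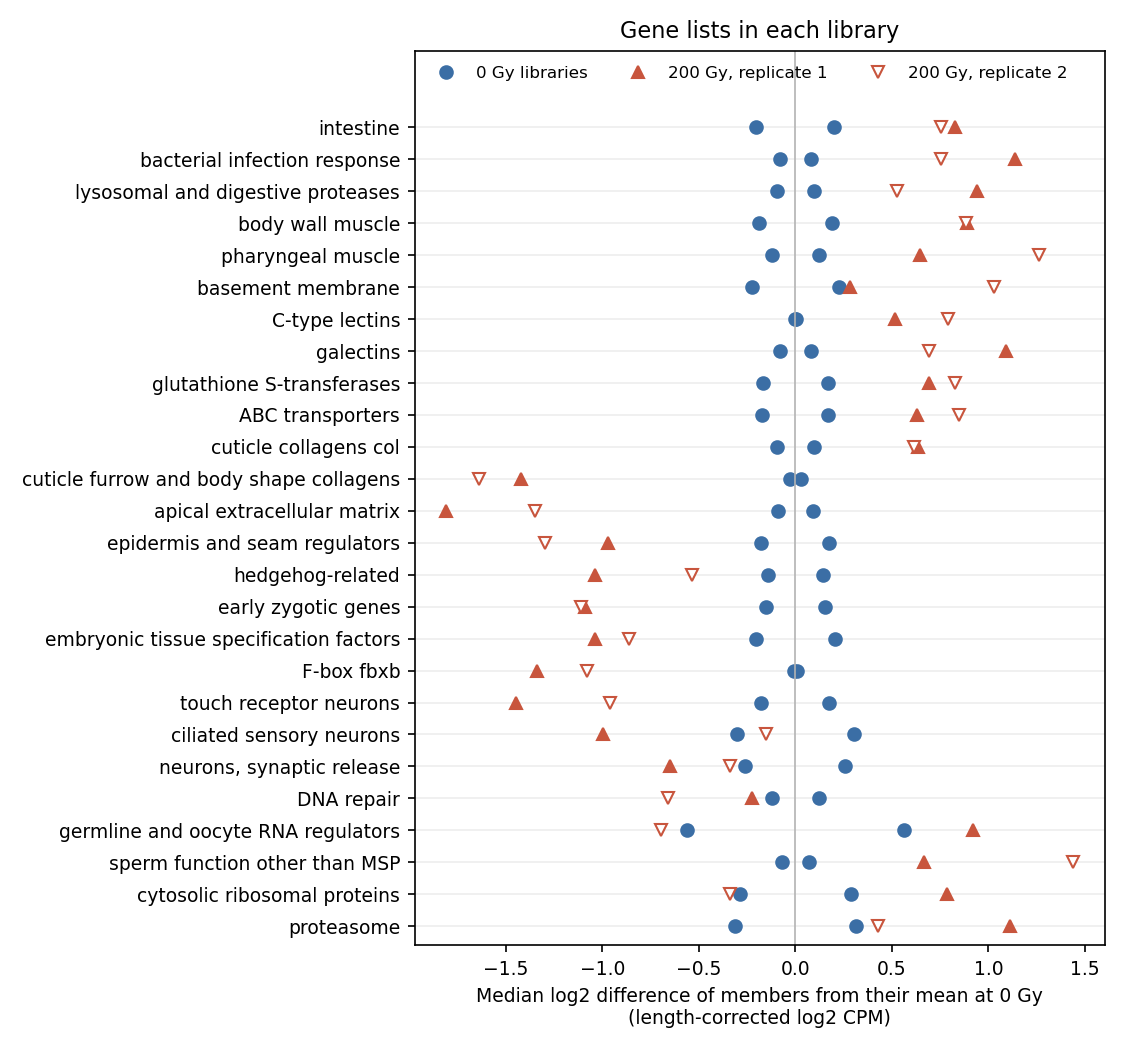
Each row is a gene list and each point the median, over its tested members, of the log2 difference of a library from the mean of the 2 controls (length-corrected CPM), with circles for 0 Gy and triangles for 200 Gy. Both 200 Gy libraries lie right of both controls for intestine and body wall muscle and left of them for cuticle matrix, early zygotic and touch neuron lists, while for germline regulators they lie on opposite sides (0.92 and -0.69).

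The known transcripts of the DNA damage response were not called. The cell death gene egl-1, a CEP-1 target, had 16 and 5 reads at 0 Gy and 33 and 28 at 200 Gy, a log2 difference of 1.28 ± 0.76 (adjusted p = 0.301). Its fellow target ced-13 had 1 and 1 reads at 0 Gy and 7 and 7 at 200 Gy, too few to be tested. The genes of CEP-1 itself, the recombinase RAD-51 and the checkpoint kinases ATM-1, ATL-1 and CHK-2 differed by -0.25, -0.07, 0.59, -0.72 and -0.14 in log2, and the lowest adjusted p among them was 0.195 by edgeR. Of 17 checkpoint genes 0 passed (median -0.21, from -0.75 to 0.25 over the alternatives; 2 at an unadjusted p under 0.05 and 0 past the threshold by DESeq2). Of 52 DNA repair genes 1 fell, 28 did not overlap in the lower direction, and the median was -0.45 (-0.99 to -0.21 over the alternatives). That was rad-50, of the complex that binds broken DNA ends, at 63.4 and 75 CPM at 0 Gy and 22.4 and 26.4 at 200 Gy, a change of -1.5 ± 0.33 (adjusted p = 0.0469), and it was below 400 Gy by -1.82 ± 0.33 (adjusted p = 0.0277). Of 26 condensin, cohesin and dosage compensation genes 1 passed, and 12 did not overlap in the lower and 0 in the higher direction (median -0.435). The cohesin regulator evl-14 fell, from 76.3 and 109 to 26.4 and 33.96 CPM, a change of -1.62 ± 0.34 (adjusted p = 0.0455). The histone demethylase gene rbr-2 was the 1 of 46 histone modification genes that passed, at 84.5 and 97.3 CPM at 0 Gy and 28.9 and 32.5 at 200 Gy, a change of -1.57 ± 0.31 (adjusted p = 0.042). The linker histone gene his-24 changed by -2.23 ± 0.47 (adjusted p = 0.0455). Over 12 apoptosis genes the median was 0.05, from -0.32 to 0.39 over the alternatives.

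Signalling genes mostly did not pass. The 4 that the study named as differing, plc-3, age-1, lin-45 and cbp-1, had log2 differences of -0.09, 0.12, -0.93 and -0.18 once compared with genes of like length (lowest adjusted p by edgeR 0.16), against -1.49, -1.02, -1.84 and -1.70 uncorrected. In other families the study named, 0 of 14 guanylate cyclase genes passed by edgeR (3 at an unadjusted p under 0.05 and 1 past the threshold by DESeq2) and 0 of 7 LSm genes (1 at an unadjusted p under 0.05 and 0 past the threshold by DESeq2). Of 13 phospholipase C, diacylglycerol kinase and related genes 1 passed. That was the protein kinase C gene pkc-2, at 33.9 and 66.4 CPM at 0 Gy and 166 and 228 at 200 Gy, a change of 1.97 ± 0.41 (adjusted p = 0.0445) against 0.82 uncorrected. The Wnt ligand gene egl-20 was the 1 of 28 Wnt genes that passed, at 22.9 and 25.19 CPM at 0 Gy and 4.6 and 4.82 at 200 Gy, a change of -2.35 ± 0.48 (adjusted p = 0.0427). Stress pathway genes taken whatever their p were not called: the p38 kinase gene pmk-1 differed by -1.26 ± 0.40 (adjusted p = 0.094), skn-1 by 0.11 ± 0.44 (adjusted p = 0.9), daf-16 by -0.06 ± 0.35 (adjusted p = 0.929), sod-3 by 0.49 ± 0.41 (adjusted p = 0.462), gst-4 by 0.71 ± 0.60 (adjusted p = 0.465), mtl-1 by -0.49 ± 0.74 (adjusted p = 0.699) and hsp-16.2 by 1.51 ± 0.64 (adjusted p = 0.164). For hsp-16.2, a small heat shock gene, the libraries stood at 199 and 228 CPM at 0 Gy and 357 and 855 at 200 Gy. The double-stranded RNA importer gene sid-2, expressed in the intestine, rose, at 24.0 and 28.3 CPM at 0 Gy and 93.2 and 108 at 200 Gy, a change of 1.94 ± 0.32 (adjusted p = 0.0394).

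Lists of core machinery had few calls. All 32 of 32 proteasome genes had a positive fold change (median 0.76), 0 passed by edgeR (6 at an unadjusted p under 0.05 and 2 past the threshold by DESeq2), and 17 did not overlap in the higher direction. The median was 0.23 with the trend on level removed too and 0.36 without the first 200 Gy library. The subunit gene pas-2 measured 386 and 338 CPM at 0 Gy and 928 and 828 at 200 Gy, a log2 difference of 1.28 ± 0.39 (adjusted p = 0.0848). Of 49 oxidative phosphorylation genes and 48 of glycolysis and the TCA cycle 0 passed by edgeR (16 at an unadjusted p under 0.05 and 4 past the threshold by DESeq2, and 14 at an unadjusted p under 0.05 and 9 past the threshold by DESeq2), with medians of 0.65 and 0.64. In both the second irradiated library was nearer the controls (0.95 and 0.31, and 1.07 and 0.20). The medians were 0.18 and 0.18 with the trend on level removed too, and 0.32 and 0.17 without the first 200 Gy library. The 78 cytosolic ribosomal protein genes had a median of 0.29, which turned to -0.54 when the trend on level was removed too and to -0.36 without the first 200 Gy library, and was 0.79 and -0.34 by library. Of 34 genes of folding in the endoplasmic reticulum 1 rose, the disulfide isomerase gene pdi-6, at 342 and 319 CPM at 0 Gy and 1052 and 1059 at 200 Gy, a change of 1.67 ± 0.37 (adjusted p = 0.0476). The HSP90 gene daf-21, at 5125 and 2712 CPM at 0 Gy and 12230.0 and 10340.0 at 200 Gy, differed by 1.53 ± 0.51 (adjusted p = 0.102). The ribosomal RNA processing gene crn-3 fell, at 71.9 and 92.4 CPM at 0 Gy and 29.3 and 29.99 at 200 Gy, a change of -1.47 ± 0.32 (adjusted p = 0.0481), and lay below 400 Gy by -1.51 ± 0.32 (adjusted p = 0.0403).

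Over all 160 gene-name families with at least 8 tested members, the lowest medians were those of tbx (-1.78, 11 tested), bus (-1.72, 8), grl (-1.60, 15), sdz (-1.40, 20), wrt (-1.37, 9), fbxb, mec (-1.25, 15) and cdh (-0.96, 9). Of their members, bus-8, a glycosyltransferase gene of the epidermis, stood at 15.5 and 16.17 CPM at 0 Gy and 4.17 and 3.68 at 200 Gy, a log2 difference of -2.01 ± 0.51 (adjusted p = 0.0584), and the hedgehog-like gene grl-1 at 5.73 and 5.23 CPM at 0 Gy and 0.401 and 0.419 at 200 Gy, a log2 difference of -3.70 ± 0.86 (adjusted p = 0.0517). The cadherin gene cdh-3 (coding length 10032 bases) differed by -1.82 ± 0.54 (adjusted p = 0.0812) against -3.90 uncorrected. The sdz family rests on weakly detected genes, with a median of 0.46 among members of at least 5 CPM. The highest medians were those of nspd (1.54, 9 tested), spe (1.3, 17), wht (1.3, 8), pgp (1.26, 14), fipr (1.21, 14), msp, scrm (1.17, 8) and pes (1.15, 8). Without the second 200 Gy library these 8 medians ran from 0.08 (pgp) and 0.30 (fipr) to 0.95 (pes). Among members of at least 5 CPM the medians of spe, wht and scrm were 0.58, 0.55 and 0.76. Those of the other families of the 8 ran from 1.14 (fipr) to 1.62 (nspd). The pgp median was -0.13 without the length correction. The nspd genes, near-identical copies, include nspd-1, at 5.51 and 4.48 CPM at 0 Gy and 9.38 and 30.8 at 200 Gy, a log2 difference of 2.02 ± 0.58 (adjusted p = 0.0764), with the second irradiated library far above the first. In pes, a set named for patterned expression, pes-7 (coding length 4176 bases) rose by 1.53 ± 0.31 (adjusted p = 0.042) against 0.11 uncorrected. Of the 8 pes genes 5 had a positive fold change, and 1, pes-10, was called lower.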

How the data were processed

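The deposited table gives raw read counts and RPKM values per gene for each library. The submitters' processing notes list TopHat2 2.0.13, bcl2fastq and the genome build WBcel235. No source used here gives the read counter, the annotation release or the strand setting. The authors' RPKM equals count over length and library total, so only the counts were tested. Of the lengths, 91.7% are multiples of 3 and are called coding lengths. Positions come from the table.

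Totals at 0 and 200 Gy were 10270678, 9930689, 9554479 and 11011227 counts, with TMM factors of 1.19, 1.24, 0.751 and 0.945. The share of ribosomal RNA counts was 1.09% and 4.32% at 0 Gy and 1.19% and 1.72% at 200 Gy. Replicates differed beyond counting noise (chi-square per degree of freedom 44.9 and 71.5), so none was a copy.

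The test was that of edgeR 4.0.16 under R 4.3.3 (quasi-likelihood on counts, filterByExpr, TMM) in 1 model of all 6 libraries with dose as factor and 3 residual degrees of freedom. Per library, a loess trend (span 0.3) on log2 coding length was added to the offsets. The ± values are approximate standard errors, the absolute log2 fold change over the square root of the test's F statistic. They include the spread between libraries and restate the test. Alternatives included DESeq2 1.42.0, other scalings, filters and trends, the replicate number as a block and each library left out. The steps were also run on simulated counts, drawn independently for each library. These held neither a trend on level nor a deviation shared by libraries of the same replicate number. That run therefore cannot show how reliable the calls are in these data. The 2 shared replicate numbers do not mark a common batch in the labels, so no block was used.

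Named genes are the 12 largest rises and falls past the threshold with a mean of at least 5 CPM, per list up to 4 called members and the 2 of the highest level, per extreme family up to 3 members, and 19 genes of prior interest. Not every one is printed. A few others that complete a count were named after their values were seen. The members and lists were chosen with earlier results of these data known.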

Additional observations from a re-analysis of the deposited data

How the results depend on the processing

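The count of genes past the threshold (426, with 216 higher and 210 lower) stayed within 1.5 times under a running median or a wider loess span for the length trend, DESeq2 size factors, upper-quartile scaling, removal of ribosomal RNA genes, a mean of at least 5 CPM and a minimum fold change, at 306 to 535. It was 2269 (1013 and 1256) without the length correction, 825 (399 and 426) with a straight line on log2 length, 2289 (1336 and 953) with no filter on low counts, 1681 (893 and 788) with the DESeq2 Wald test, and 952 (410 and 542) with the trend on level removed too, an alternative chosen after seeing the data. At an adjusted p of 0.01 it was 2 (2 and 0), and with only the 4 libraries compared 2 (2 and 0) by edgeR, where 3947 and 3662 genes had an unadjusted p under 0.05. With the replicate block and the length correction it was 4598 (2377 and 2221). Among them were 20 proteasome, 22 oxidative phosphorylation and 18 glycolysis and TCA cycle genes higher and 14 fbxb genes lower. Besides these, 6 major sperm protein genes were higher, 13 other sperm genes were higher and 1 lower, and 2 meiosis genes were higher and 9 lower. Those lists held 0 of the 426 calls. Of the DNA repair genes 3 were higher and 17 lower with the block. Same-numbered libraries deviated together (correlations of 0.489, 0.373 and 0.56 over genes), a hint from the data and not from the design. Leaving out 1 library gave 0 (without the second 0 Gy library) to 2243 calls (without the first 200 Gy library), 0 to 1238 higher and 0 to 1005 lower. The lone library of a dose is then assumed to vary like the others. Calls between 200 and 400 Gy (646) were 4495, 1808, 2335, 1587 and 1124 under the first 5 of these changed settings, 0 at 0.01 and 4522 with the replicate block, and 4 to 2132 with 1 library left out. Of the 426 genes, 384 to 426 stayed called under the straight line, DESeq2, no filter, the block, and removal of the trend on level. Fewer stayed called in other settings: 353 without the length correction and 223 with a mean of at least 5 CPM, a filter that also drops genes from the test. Without the length correction the sign turned for 48 of the 378 genes of the naming rule. Either value was called for him-4 (-0.16), fig-1 (-1.89), gcy-28 (-1.535) and ceh-44 (-1.41), of which him-4 was called with it and the other 3 without it. Of the 126 genes of that rule that were called, 15 lost the call with the trend on level removed, 19 without the length correction, 14 without the second 200 Gy library, and 35 or 34 without a 400 Gy library. A mean of at least 5 CPM ended the call of 37 of those 126 genes. Medians of 54 of the 110 lists kept their sign under every alternative. With 2 libraries a dose whose replicates differ widely, a gene that missed the threshold is not shown to be unchanged. The causes of these differences were not tested.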

Other observations

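Among 70 tested genes named as long non-coding or antisense RNA, 3 were higher and 2 lower (median 0.37). The 3 are 4.29% of the 70, against 1.5% higher over all tested genes. By annotated type, 4.55% of 44 long non-coding genes were higher and 2.27% lower. Of 56 antisense genes 1.79% were higher and 5.36% lower, against 1.46% lower over all tested genes. Each of these list and type shares rests on at most 3 genes. The antisense gene anr-49 stood at 0.44 and 0.847 CPM at 0 Gy and 5.88 and 8.22 at 200 Gy, and the long non-coding linc-40 at 7.05 and 9.33 CPM at 0 Gy and 34.1 and 62.5 at 200 Gy, with changes of 3.44 ± 0.62 (adjusted p = 0.04) and 2.56 ± 0.47 (adjusted p = 0.042). The antisense gene anr-11 went the other way, at 3.75 and 1.72 CPM at 0 Gy and 0.214 and 0.0487 at 200 Gy, a change of -4.55 ± 0.85 (adjusted p = 0.042), and lay below 400 Gy by -6.53 ± 0.84 (adjusted p = 0.021). The library kit does not mark strand, so reads of an antisense gene and of its partner cannot be told apart.

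By chromosome, V had 58 genes called higher of 2745 tested (2.11%, against 1.5% of all tested genes) and 36 lower. X had 34 higher and 47 lower of 1971 (2.38% lower, against 1.46% of all tested genes, median -0.14). Of 14410 pairs of adjacent tested genes, both were called higher in 9 and both lower in 11, and in 3 the calls were opposite. The following were picked after their values were seen. On chromosome IV, C34H4.2, C34H4.1, Y41D4B.17 and hpo-6 are neighbours among the tested genes, from 1553825 to 1564004, and rose by 2.50, 2.05, 3.08 and 2.57 in log2. On X, T14B1.1 and the intermediate filament gene ifp-1 (9665831 to 9680166) fell, with changes of -3.23 and -2.88, and so did ceh-14 and dpy-7 (7528616 to 7537788).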
